A study of Homo sapiens with 9 samples.

Results

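The comparison set LN229 cells given formate for 8 h against untreated LN229 cells at 0 h. LN229 is an established human glioblastoma cell line. Its members were 6 of the series' 9 RNA-seq libraries, chosen by their labels: 3 of untreated cells at 0 h and 3 of cells given 500 µM sodium formate for 8 h. The other 3 libraries, of cells given the same formate for 24 h, shared in the estimate of the spread. The culture medium of every group held glucose at 17 mM, glutamine at 2 mM and serum at 10%, and the labels name no altered gene. The source label spells the line LN299, and the growth protocol gives LN229, the name used here. The control was taken at 0 h, with no untreated library at 8 h, so formate and 8 h of culture cannot be told apart. The labels do not say whether libraries of a group came from separate cultures, so p-values measure the spread between these libraries, which may be technical.

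Formate is the smallest carboxylate and the free form in which a carbon unit leaves mitochondria. The mitochondrial folate enzymes release it from serine and glycine, and the cytosolic enzyme MTHFD1 joins it to tetrahydrofolate, from where the carbon goes into purines, thymidylate and methionine. Many tumours release formate, and it has been studied in glioblastoma cells for effects on lipid metabolism and invasion. The comparison asks which transcripts changed within 8 h of added formate.

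Total counts lay between 22222298 and 25848242 in the 6 libraries, and 15273 of the 23727 genes in the table had enough counts to be tested. Levels are given as CPM, a library's counts scaled to a common total with edgeR's TMM factors and not by gene length, so they compare libraries and not genes. VIM, CD44, NES and TNC, genes of mesenchymal and neural progenitor cells that glioblastoma lines express, stood at 887 CPM or more in every library, and EGFR at 81.5 CPM or more. GFAP, the astrocyte filament, stayed at or under 0.425 CPM and the glial factor SOX9 at or under 1.02 CPM. The astrocyte gene S100B (59.2 to 177 CPM) and the keratin KRT18 (120.5 to 184 CPM) were present. The summed immune markers reached no more than 0.619 CPM at 0 h and 0.553 CPM at 8 h. The endothelial gene PECAM1 and the epithelial genes EPCAM and CDH1 were at or near 0, with no more than 3 counts in a library.

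Untreated replicate 1 stood apart from the other untreated libraries. The chi-square of counts over genes, per degree of freedom, was 57.6 and 60.5 between untreated replicate 1 and untreated replicates 2 and 3, against 8.62 between the latter. At 8 h it was 22.6, 23.7 and 10.9 for the same pairs of numbers, so every pair of replicates differed by more than counting noise. The difference in untreated replicate 1 followed gene length. Within each time, replicate 1 was set against the mean of replicates 2 and 3 in log2 CPM. Spearman's rho of that difference with exon length was -0.52 at 0 h and -0.04 at 8 h, over genes of at least 5 CPM. Genes were split into 5 equal classes by summed exon length. In the class with the shortest exons (median 2310 bases), the median log2 CPM difference between 8 h and 0 h was -0.30 in replicate 1, and in the class with the longest exons (median 11007 bases) it was 0.24. In replicate 2 the same medians were 0.00 and 0.01, and in replicate 3 they were 0.05 and -0.05. Spearman's rho between exon length and the difference, over 10831 genes of at least 5 CPM that share the same libraries, was 0.59 in replicate 1, 0.01 in replicate 2 and -0.34 in replicate 3. With exon length fitted out of each library, an alternative chosen after seeing the data, 0 genes were called and 70 had an unadjusted p under 0.05. What made the length trend was not tested. It touches many results below, so the 3 same-numbered differences are given beside them.

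**Figure D1:**
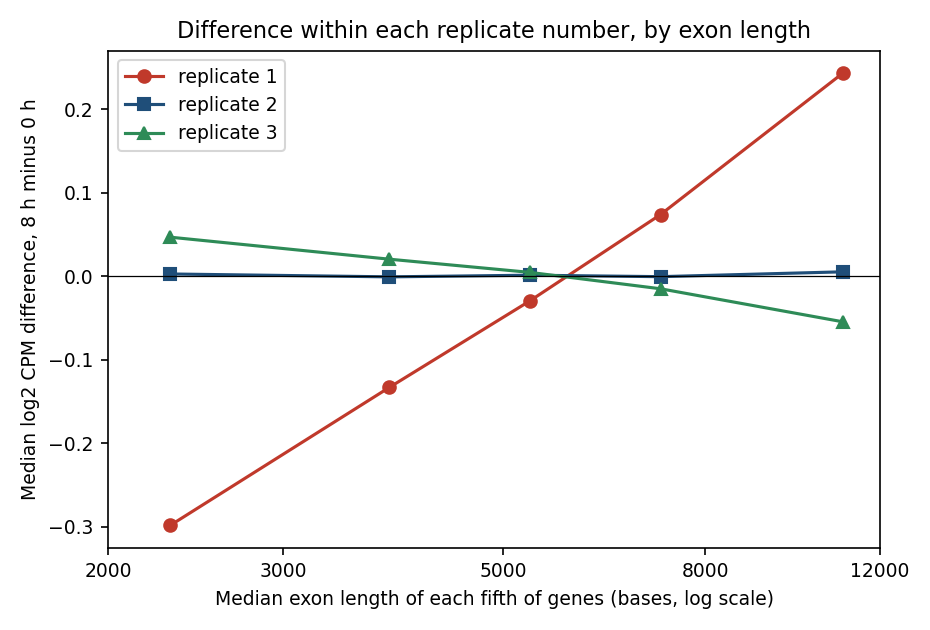
Median log2 CPM difference between 8 h of formate and 0 h within each replicate number (vertical axis) for genes of at least 5 CPM, split into 5 classes by the summed length of their exons (horizontal axis, log scale, point at the median length of the class). The line of replicate 1 climbs from -0.30 to 0.24, that of replicate 2 stays at 0, and that of replicate 3 goes from 0.05 to -0.05.

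No gene passed the test after 8 h of formate. With edgeR's quasi-likelihood test, 0 of 15273 genes (0%) had a Benjamini-Hochberg adjusted p under 0.05, with 0.9999 as the lowest value reached. Before adjustment, 79 genes (0.517%) had p under 0.05, 29 of them higher at 8 h (0.19%) and 50 lower (0.327%). With p-values spread evenly between 0 and 1, a share of 0.05 would fall under 0.05, and the observed share was far smaller. The test was therefore conservative here, so the absence of calls does not show an absence of change. What made it so was not tested. DESeq2 called 0 genes, with 37 at an unadjusted p under 0.05, and limma-voom called 0, with 77. With the replicate number as a block, edgeR called 0 genes, and 155 (1.01%) had an unadjusted p under 0.05, among them all 79. Without untreated replicate 1 the count called was also 0, with 109 at an unadjusted p under 0.05. In bulk RNA a change in the mix of cell states and a change in RNA per cell cannot be told apart.

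The data also bound how large a missed change could be. The 95% interval of the fold change, gene by gene and not adjusted for the number of genes, lay within 1.5-fold either way for 10385 genes (68%) and within 2-fold for 13438 (88%). The width depended on level: the interval lay within 1.5-fold for 0.0482% of genes under 1 CPM, 23.3% of those from 1 to 5 CPM, 70.9% from 5 to 10 CPM and 91.9% from 10 to 50 CPM. For genes under 1 CPM the median interval reached 1.84-fold to either side of its fold, and for those from 50 to 100 CPM 1.19-fold. Without untreated replicate 1, 10487 genes had such an interval within 1.5-fold. These intervals come from the fit without the replicate number, and with it as a block 11613 genes (76%) had one within 1.5-fold. Among the 10839 genes with a mean of at least 5 CPM, 2 had a fitted change of 1.5-fold or more, TMEM160 and the long noncoding RNA ENSG00000263731, both described below. A smaller response, or a larger one in weakly expressed genes, is not excluded by these intervals.

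**Figure D2:**
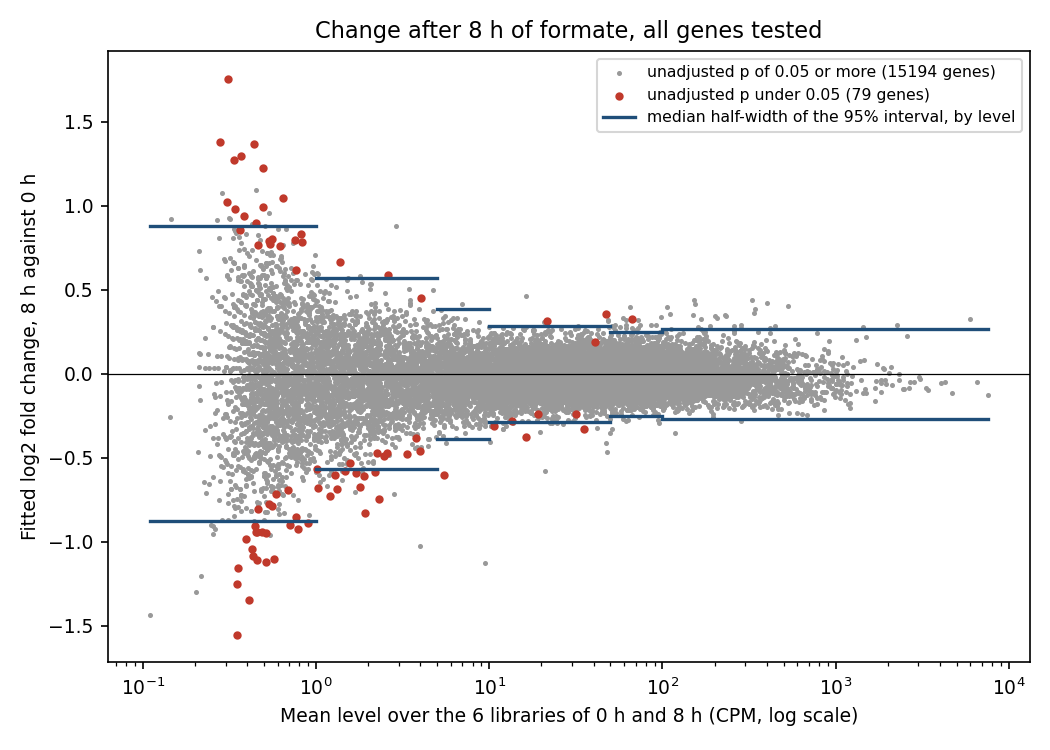
Fitted log2 fold change between 8 h and 0 h (vertical axis) against the mean level over the 6 libraries (horizontal axis, CPM, log scale) for the 15273 genes tested. Red points are the 79 genes with an unadjusted p under 0.05, of which 46 lie under 1 CPM, and blue bars give the median half-width of the 95% interval in each range of level.

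The genes that handle formate itself did not differ beyond the spread between libraries. Cytosolic folate metabolism was represented by 12 tested genes, of which 0 passed the test and 0 had an unadjusted p under 0.05. Their median fitted log2 fold change was -0.06, beside -0.02 over all genes tested, and 10 of the 12 intervals lay within 1.5-fold. MTHFD1, the enzyme that attaches formate to tetrahydrofolate, stood at 219.7, 193 and 173 CPM at 0 h and at 215, 193 and 181 CPM at 8 h in replicates 1, 2 and 3. The groups overlapped, the means were 195 ± 23.3 and 196 ± 17.6 CPM (SD, n = 3), and the fold change had a 95% interval of 0.836 to 1.21. The same library order returned at both times, with replicate 1 the highest and replicate 3 the lowest.

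The enzymes that spend the folate-bound carbon showed the same. TYMS, which makes thymidylate, had 528, 368 and 326 CPM at 0 h and 408, 380.4 and 353 at 8 h, an interval of 0.700 to 1.25; 46.6% of its exons are overlapped by a gene on the other strand, and the strand setting of the counts is not known. SHMT1, the cytosolic serine hydroxymethyltransferase, had 59.8, 61.5 and 55.2 CPM and then 48.9, 64.8 and 55.4. In both of these the groups overlapped. SLC19A1, the reduced folate carrier, differed more between replicates than between times, with 73.9, 39.9 and 40.8 CPM at 0 h and 61.7, 41.2 and 41.6 at 8 h. ALDH1L1, the cytosolic enzyme that oxidises formyl-tetrahydrofolate, had at most 1 count in a library and FTCD at most 10, so neither was tested.

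Of the mitochondrial enzymes that release formate, 10 were tested and 0 passed, 5 were fitted higher and 5 lower, the median was 0.01, and 6 of the 10 intervals lay within 1.5-fold. SHMT2, which takes the carbon from serine, had 431, 287 and 296 CPM at 0 h and 375, 305 and 299 at 8 h (interval 0.750 to 1.24). MTHFD2, the mitochondrial dehydrogenase of the pathway, had 152, 115 and 113 CPM and then 142, 116 and 116 (interval 0.772 to 1.25). MTHFD1L, which frees formate, had 125, 77.5 and 73.6 CPM and then 102, 82.2 and 77.5 (interval 0.692 to 1.29). In all 3 the replicate 1 library was the highest at both times, and the other replicates moved by less than 0.1 on the log2 scale. ALDH1L2, which burns the formyl group to carbon dioxide, had 7.68, 12.8 and 12.7 CPM and then 12.3, 12.2 and 11.7, where untreated replicate 1 alone was low. GLDC, of the glycine cleavage system, had 14.9, 14.0 and 13.1 CPM and then 14.2, 15.0 and 13.8. The widest intervals belonged to weakly expressed genes, MTHFD2L (0.822 to 1.67) and SARDH (0.517 to 2.28) among them.

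Formate and other monocarboxylates cross membranes through proton-linked carriers and anion exchangers, and 8 such genes were tested with 0 passing and a median of -0.00. SLC16A1, the carrier MCT1, had 115, 111 and 107 CPM at 0 h and 122, 113 and 108 at 8 h, higher in all 3 same-numbered pairs but by no more than 0.09 on the log2 scale, with an interval of 0.891 to 1.19. SLC16A3, the lactate exporter MCT4, had 36.1, 32.7 and 29.8 CPM and then 33.1, 32.3 and 29.5. BSG, the chaperone of both carriers, had 541, 446 and 419 CPM and then 465, 448 and 429. SLC26A2, an anion exchanger, showed how far apart replicates could lie: it had 268, 918 and 721 CPM at 0 h and 393, 828 and 647 at 8 h, and its interval ran from 0.563 to 1.70. Another monocarboxylate carrier, SLC16A7, had 19.2, 39.5 and 35.9 CPM and then 38.4, 39.7 and 33.8. Another anion exchanger, SLC26A6, had 40.8, 32.5 and 42.4 CPM and then 36.3, 28.6 and 43.3. Both overlapped between the times.

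Formate's carbon ends in methionine and in the purine ring, and no gene of either route was called. In the methionine cycle and transsulfuration 0 of 10 tested genes passed, with a median of 0.01, and 8 intervals lay within 1.5-fold. The widest interval was that of CBS, fitted at 0.27 on the log2 scale and reaching 1.20. MAT2A, which makes S-adenosylmethionine and whose transcript is known to respond to it, had 314, 328 and 401 CPM at 0 h and 320.5, 326 and 407 at 8 h (interval 0.831 to 1.23). AHCY, which clears S-adenosylhomocysteine, had 360.0, 282 and 269 CPM and then 307, 288 and 268. MTR, the methionine synthase, had 82.9, 80.5 and 85.2 CPM and then 108, 88.7 and 82.8, where the replicate 1 library at 8 h was the highest (pair differences 0.38, 0.14 and -0.04). Of 15 purine genes 0 passed, the median was -0.06, and 13 intervals lay within 1.5-fold. The widest was that of ADSS1, fitted at 0.25 on the log2 scale and reaching 1.09. GART and ATIC take the formyl groups into the ring. GART had 173, 153 and 147 CPM and then 172, 159 and 148 (interval 0.869 to 1.19), and ATIC had 276, 196 and 192 CPM and then 217, 200.0 and 191 (interval 0.741 to 1.13), with only untreated replicate 1 above the rest. PPAT, the first committed enzyme, was higher in all 3 pairs, from 25.7, 31.9 and 29.4 CPM to 32.5, 32.6 and 31.8, at an unadjusted p of 0.156 and with the groups overlapping. PAICS, a bifunctional enzyme of the same route, had 385, 289 and 270.4 CPM and then 338, 289 and 277.

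Cells also make formate outside folate metabolism, when demethylases strip methyl groups and formaldehyde is oxidised. Of 19 such genes 0 passed. ADH5, which oxidises formaldehyde, had 161, 143 and 128 CPM at 0 h and 138, 137 and 129.7 at 8 h. The RNA demethylase FTO had 60.1, 69.8 and 70.7 CPM and then 71.2, 70.9 and 64.2, the histone demethylase KDM1A 189, 156 and 156 and then 162, 159.8 and 154. Groups did not overlap for 3 of the 19, RBBP9, KDM4A and CYP51A1, all higher at 8 h; over all genes 1.43% had this pattern. KDM4A's difference was small, 35.9, 37.0 and 36.9 CPM at 0 h and 38.3, 40.5 and 38.6 at 8 h. The list's median difference was 0.22 in replicate 1, 0.02 in replicate 2 and -0.04 in replicate 3.

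Serine synthesis and the amino acid response driven by the factor ATF4 were followed because they react to amino acid and folate shortage within hours. Of 22 genes 0 passed, the median was -0.03, and 17 intervals lay within 1.5-fold. ATF4 had 506, 355 and 339 CPM at 0 h and 404, 354 and 345 at 8 h (interval 0.710 to 1.19). PHGDH, the first enzyme of serine synthesis, had 258, 211 and 209 CPM and then 207, 216 and 223, and PSAT1, the second, 112, 93.3 and 87.5 and then 104, 96.8 and 86.2. The stress gene DDIT3, lower in all 3 pairs, had 53.2, 30.8 and 33.6 CPM and then 39.5, 29.7 and 32.6 at an unadjusted p of 0.286. ASNS, the asparagine synthetase, is a known ATF4 target. Its promoter is shown because it carries the letters of the amino acid response element, in capitals (TGATGAAA, searched on both strands, found in 0.931% of 35116 RefSeq promoters of the same 250 bases). It spans chr7:97872409-97872658 on the minus strand of GRCh38.p14 and is printed 5′ to 3′ towards the start:
ASNS: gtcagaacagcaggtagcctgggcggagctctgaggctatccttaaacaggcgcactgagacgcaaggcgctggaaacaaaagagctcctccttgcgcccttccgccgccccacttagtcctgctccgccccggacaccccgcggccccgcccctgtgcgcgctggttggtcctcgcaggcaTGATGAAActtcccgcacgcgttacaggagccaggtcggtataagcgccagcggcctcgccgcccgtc
The element stood 68 to 61 bases before the start. ASNS was counted at 0.990, 1.46 and 1.95 CPM at 0 h and at 1.95, 1.18 and 2.08 CPM at 8 h, with groups that overlapped and an interval of 0.733 to 1.91. In GENCODE 44.6% of its exon bases are shared with another gene on the same strand, and how the counting treated shared reads is not given in the sources used here.

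Sterol and fatty acid genes answer to the factors SREBP2 and SREBP1, which are released from INSIG proteins when sterols are low. Of 24 cholesterol genes 0 passed at 8 h and the median was -0.03; of 21 fatty acid synthesis genes 0 passed and the median was 0.02. HMGCS1, an early enzyme of sterol synthesis, had 44.5, 57.2 and 66.1 CPM at 0 h and 46.4, 60.4 and 61.5 at 8 h (interval 0.798 to 1.26). INSIG1, itself an SREBP target, differed between replicates by more than between times: 20.7, 35.8 and 46.9 CPM at 0 h and 19.3, 36.4 and 43.3 at 8 h.

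FASN, the fatty acid synthase, was fitted at 0.18 on the log2 scale (SE 0.13) and had the smallest unadjusted p of its list, 0.197. It had 492, 558 and 665 CPM at 0 h and 676, 589 and 671 at 8 h, so that untreated replicate 1 was the lowest library and the groups overlapped; the 3 pair differences were 0.46, 0.08 and 0.01. SCD, the stearoyl-CoA desaturase, had 139.6, 258 and 279 CPM and then 153, 258 and 252, and FADS2, the delta-6 desaturase, 73.1, 98.3 and 97.2 and then 74.6, 100.4 and 94.7. ACACA, the acetyl-CoA carboxylase, had 67.0, 94.1 and 83.2 CPM and then 94.5, 97.4 and 80.1. CYP51A1, of sterol synthesis, did not overlap between the groups (3.58, 5.16 and 5.84 and then 6.22, 5.86 and 5.96 CPM, unadjusted p of 0.124); 79.4% of its exon bases are shared with other genes on the same strand. Several genes of these lists differed between 24 h and 8 h. When their change began was not tested. The interval between 8 h and 0 h was 0.672 to 1.43 for SCD, so a change before 8 h is not excluded. By the same fit, 24 h against 8 h, on the log2 scale, INSIG1 rose by 1.77 (adjusted p = 0.0183), SCD by 1.72 (adjusted p = 0.0171), FADS2 by 1.53 (adjusted p = 0.00869), HMGCS1 by 1.02 (adjusted p = 0.0171) and FASN by 0.69 (adjusted p = 0.0231). Fatty acid uptake and oxidation had 0 of 22 passing and a median of -0.07, with pair medians of -0.23, -0.02 and 0.03. CPT1A, the gate of mitochondrial oxidation, had 99.2, 117 and 87.3 CPM and then 110.0, 116 and 88.7.

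**Figure D3:**
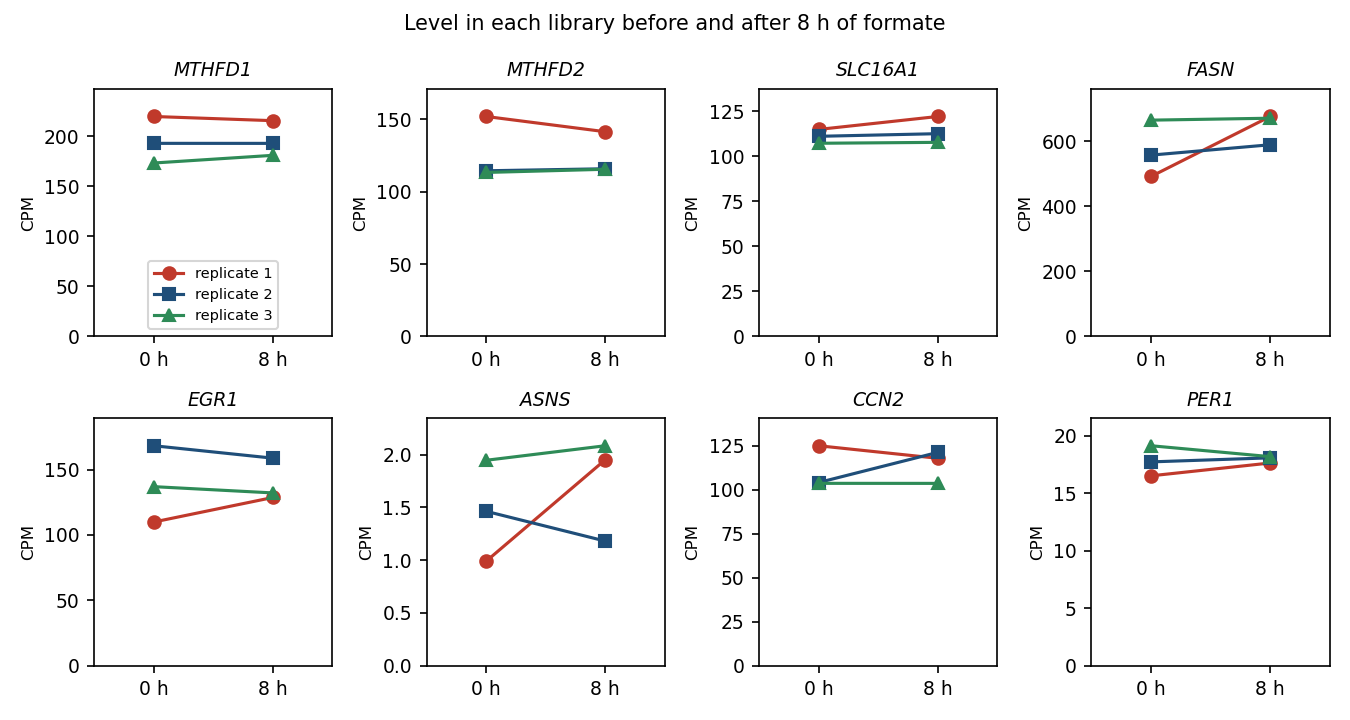
Level in CPM (vertical axes, from 0) at 0 h and at 8 h of formate for 8 genes, with the libraries of the same replicate number joined by a line. MTHFD1, MTHFD2 and SLC16A1 handle formate, FASN makes fatty acids, and EGR1, ASNS, CCN2 and PER1 report on growth factor, amino acid, YAP and clock signals. In FASN, EGR1, ASNS and PER1 untreated replicate 1 is the lowest library. In none of the 8 genes do the points of 0 h and 8 h separate.

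Matrix metalloproteinases and their inhibitors, which govern invasion through matrix, had 12 tested genes, 0 passing and a median of -0.03. MMP2, the gelatinase of this line, had 1129.5, 1352 and 1275 CPM at 0 h and 1086, 1384 and 1255 at 8 h (interval 0.815 to 1.21), MMP14, its membrane activator, 259, 245 and 255 and then 265, 249 and 265 (interval 0.893 to 1.18), and TIMP1, an inhibitor, 637, 508 and 505 and then 495, 526 and 528. MMP1, MMP3, MMP7, MMP9 and MMP13 had at most 8 counts in any library and were not tested. Mesenchymal and matrix genes had 0 of 29 passing and a median of 0.05, with pair medians of 0.12, 0.02 and -0.01. FN1, fibronectin, had 5400.0, 4538 and 5843 CPM at 0 h and 9461, 5038 and 5330.0 at 8 h: the replicate 1 library at 8 h was high and the other 5 lay together, so the interval ran from 0.889 to 1.78. THBS1, thrombospondin, had 2631, 1752 and 1734 CPM and then 3631, 2048 and 1795, with replicate 1 the highest at both times. VIM, the filament vimentin, had 6284, 4260.2 and 4165 CPM and then 5040.1, 4312 and 4242, with untreated replicate 1 the highest. CDH2, N-cadherin, had 290.0, 308 and 282 CPM and then 345, 309.9 and 286 (interval 0.890 to 1.28).

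Inflammatory signalling gave no call either. Of 25 genes of the NF-kB and Toll-like receptor pathways 0 passed, and the median was 0.03. NFKBIA, the inhibitor that NF-kB induces within the first hours, had 23.2, 17.5 and 19.3 CPM at 0 h and 19.3, 18.0 and 17.2 at 8 h (interval 0.726 to 1.13). TNFAIP3, another such inhibitor, had 4.81, 5.62 and 4.87 CPM and then 5.72, 4.68 and 5.02. TLR4, a receptor of the family, had 69.1, 94.2 and 96.2 CPM and then 85.6, 90.8 and 92.7, and the chemokine CXCL8 15.8, 4.70 and 9.20 and then 16.2, 5.60 and 10.4, again ordered by replicate number. IL6 had at most 15 counts in a library and was not tested.

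Among 23 interferon-stimulated genes 0 passed, and 1, IFI27, had an unadjusted p under 0.05, where the background was 0.517%. IFI27 had 0.189, 0.308 and 0.133 CPM at 0 h and 0.318, 0.525 and 0.723 at 8 h, so few counts that its interval ran from 1.08 to 5.59 (unadjusted p = 0.0311). Of the 23 genes, 9 were fitted higher and 14 lower, beside 6610 higher and 8663 lower of all genes tested. The median was -0.08, and 9 of the 23 were lower in all 3 pairs, a pattern of 11.5% of all genes; 1 was higher in all 3, IFI27 itself. Pair medians were -0.31, -0.04 and -0.05. ISG15, a ubiquitin-like protein, was lower with no overlap, 2.59, 2.39 and 2.35 CPM at 0 h and 1.73, 1.79 and 2.17 at 8 h, and so was OASL, 2.17, 1.81 and 1.95 and then 1.45, 1.40 and 1.79, and the factor IRF1, 20.3, 18.9 and 19.3 and then 17.9, 17.5 and 16.6. Groups not overlapping on the lower side were 1.89% of all genes. IFIT1, an RNA-binding antiviral protein, had means of 5.57 ± 0.0958 CPM at 0 h and 5.82 ± 1.59 CPM at 8 h (SD, n = 3).

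Immediate-early genes answer growth factors and stress within an hour, so 8 h would catch only a lasting response. Of 36 genes 0 passed, 5 were higher and 5 lower in all 3 pairs, and the median was 0.01. EGR1, the zinc finger factor, is shown with its promoter because that promoter holds a pair of CArG boxes (in capitals), the element bound by serum response factor, which 1.16% of 35116 RefSeq promoters hold in the same window on either strand. It spans chr5:138465229-138465478 on the plus strand of GRCh38.p14:
EGR1: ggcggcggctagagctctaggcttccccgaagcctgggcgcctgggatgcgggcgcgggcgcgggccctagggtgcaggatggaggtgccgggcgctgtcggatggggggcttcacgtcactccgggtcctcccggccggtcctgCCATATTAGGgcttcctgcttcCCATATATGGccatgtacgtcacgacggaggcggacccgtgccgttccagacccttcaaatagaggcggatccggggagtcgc
The boxes stood 105 to 96 and 83 to 74 bases before the start. EGR1 had 109.9, 168 and 137 CPM at 0 h and 129, 159 and 132 at 8 h. Replicate 2 was the highest at both times, the groups overlapped, and the interval was 0.780 to 1.31. Between 8 h and 24 h it rose, with a log2 difference of 0.73 (adjusted p = 0.0382). FOS, partner of JUN in AP-1, had 7.40, 11.6 and 10.4 CPM at 0 h and 8.31, 10.3 and 11.4 at 8 h, JUN 208, 121 and 145 and then 201, 126 and 148, and MYC 25.5, 15.0 and 16.2 and then 24.2, 18.1 and 18.4. For JUN and MYC replicate 1 was the highest library at both times.

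Circadian genes were read because a control taken 8 h earlier would differ from the treated cells if the cultures kept a common clock phase. Of 18 genes 0 passed and the median was 0.01. PER1, a repressor of the clock, is shown with its promoter, which holds an E-box (CACGTG, a palindrome and so the same on both strands, in capitals) of the kind bound by CLOCK and BMAL1 and present in 6.345% of the 35116 promoters. It spans chr17:8152405-8152654 on the minus strand of GRCh38.p14:
PER1: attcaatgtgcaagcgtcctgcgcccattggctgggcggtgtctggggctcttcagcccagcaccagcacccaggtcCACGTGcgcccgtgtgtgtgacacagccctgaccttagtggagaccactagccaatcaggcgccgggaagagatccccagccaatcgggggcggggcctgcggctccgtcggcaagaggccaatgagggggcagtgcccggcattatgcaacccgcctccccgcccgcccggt
The box stood 173 to 168 bases before the RefSeq start. PER1 had 16.5, 17.7 and 19.1 CPM at 0 h and 17.6, 18.1 and 18.2 at 8 h, an interval of 0.846 to 1.20. PER2 had 16.3, 18.3 and 17.8 CPM and then 19.8, 17.2 and 18.2, and CRY1, another repressor, 38.2, 39.6 and 40.6 and then 40.7, 39.7 and 39.4. NR1D1, a receptor of wide daily swing in many tissues, was higher in all 3 pairs, 5.89, 8.70 and 5.44 CPM and then 6.76, 10.1 and 5.66, with overlap and an interval of 0.789 to 1.58. PER3 was higher in all 3 as well, 15.8, 25.7 and 20.8 and then 21.3, 27.9 and 23.8, at an unadjusted p of 0.201.

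Targets of YAP and TEAD, the factors that respond to cell density and tension, leaned upwards without a call. This list was picked by an earlier analysis after these data had been seen, so its direction is no independent evidence. Of 25 genes 0 passed, 22 were fitted higher and 3 lower, with a median of 0.06 and pair medians of 0.22, 0.07 and -0.01. Among all genes tested, 43.3% were fitted higher. Over the list, replicate 1 against the other replicates had a median log2 difference of 0.03 at 0 h and 0.38 at 8 h. Of the 25, 4 were higher in all 3 pairs beside 7.75% of all genes. CCN2, a matrix protein and textbook target, is shown with its promoter, which holds the TEAD motif GGAATG 3 times (in capitals; 11.9% of the 35116 promoters hold it at least once on either strand). It spans chr6:131951373-131951622 on the minus strand of GRCh38.p14:
CCN2: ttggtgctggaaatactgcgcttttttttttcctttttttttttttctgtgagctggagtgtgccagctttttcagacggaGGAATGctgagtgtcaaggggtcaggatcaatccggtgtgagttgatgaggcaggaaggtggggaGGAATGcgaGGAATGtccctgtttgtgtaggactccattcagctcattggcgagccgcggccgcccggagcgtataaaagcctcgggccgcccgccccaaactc
The copies began 169, 104 and 95 bases before the start. CCN2 had 125, 104 and 104 CPM at 0 h and 118, 121 and 104 at 8 h, with an interval of 0.714 to 1.49. CCN1, its relative, had 165, 72.3 and 78.1 CPM and then 154, 86.7 and 78.2, with replicate 1 far above the others at both times. CRIM1 was the 1 member of 25 whose groups did not overlap, a pattern of 1.43% of all genes on the higher side, with 187, 176 and 187 CPM and then 307, 194 and 189.8, where the replicate 1 library at 8 h was alone in standing high (pair differences 0.72, 0.14 and 0.02). At 24 h CRIM1 was 1.09 lower than at 8 h on the log2 scale (adjusted p = 0.0288), and against 0 h it did not pass (-0.76, adjusted p = 0.0745). It was named for its difference at 8 h, and both comparisons with 8 h use the same libraries.

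Proliferation genes were among the best measured. Of 40 S phase genes 0 passed, all 40 intervals lay within 1.5-fold, and the median was -0.02; of 42 genes of G2 and M phase 0 passed, 39 lay within 1.5-fold, and the median was -0.02. PCNA, the replication clamp, had 397, 360.1 and 327 CPM at 0 h and 317, 359 and 343 at 8 h (interval 0.792 to 1.12). MCM6, of the replicative helicase, had 162, 185 and 164 CPM and then 153, 188 and 169, and CCNE2, a cyclin of S phase entry, 24.3, 34.1 and 31.9 and then 29.2, 33.4 and 33.9. CCNB1, the mitotic cyclin, had 612, 477 and 439 CPM and then 488, 471 and 451, and PLK1, the mitotic kinase, 425, 350.2 and 340.3 and then 399.5, 369.9 and 349. MKI67, a mark of cycling cells with a long transcript, had 615, 735 and 793 CPM and then 1083, 788 and 662, with pair differences of 0.82, 0.10 and -0.26. Between 24 h and 8 h, 5 of the 40 S phase genes and 17 of the 42 genes of G2 and M phase passed the test, beside 4.56% of all genes. At 24 h MCM6 rose by 0.58 (adjusted p = 0.0248) and CCNE2 by 0.72 (adjusted p = 0.024) against 8 h on the log2 scale, while CCNB1 fell by 0.79 (adjusted p = 0.0266) and PLK1 by 0.83 (adjusted p = 0.0243).

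Stress responses were also without a call. Of 22 p53 targets 0 passed: CDKN1A, the cyclin-dependent kinase inhibitor, had 108, 90.3 and 80.4 CPM at 0 h and 103, 98.7 and 89.7 at 8 h, and MDM2, the ubiquitin ligase of p53, 181, 194 and 188 and then 194, 186 and 198. Of 32 hypoxia and glycolysis genes 0 passed: LDHA, the lactate dehydrogenase, had 1912, 1703 and 1572 CPM and then 1550.1, 1719.9 and 1627, and HK2, a hexokinase, 55.0, 57.2 and 59.9 and then 61.6, 56.2 and 57.1. Of 20 targets of the oxidant factor NRF2 0 passed and the median was -0.07: HMOX1, haem oxygenase, had 10.7, 11.0 and 8.85 CPM and then 9.81, 9.89 and 8.89, and NQO1, a quinone reductase, 483, 819 and 579.6 and then 368, 791 and 584, ordered by replicate. The unfolded protein and heat shock list had the lowest median of the 24 lists, -0.10, with 23 of 27 genes fitted lower and 0 passing. Among all 15273 genes tested, 8663 were fitted lower. HSPA5, the chaperone of the endoplasmic reticulum, had 1722, 1468 and 1454 CPM and then 1478, 1428 and 1382 (interval 0.774 to 1.10), and the short gene HSPE1 78.4, 48.7 and 43.0 and then 47.7, 46.0 and 41.6. Its pair medians were -0.21, -0.01 and -0.04. HSPA1A (81.2, 50.3 and 52.0 and then 72.9, 51.7 and 46.6 CPM) and HSPA1B are nearly identical, and the counting may split their reads.

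Of 13 transcripts of the mitochondrial genome 0 passed between 8 h and 0 h, and 7 passed the test of the replicate number described below, beside 10.9% of all genes. The median change was 0.04, with pair medians of 0.21, -0.25 and 0.06. MT-CO1, a subunit of cytochrome oxidase, had 1668, 1471 and 2422 CPM at 0 h and 1933, 1284 and 2477 at 8 h, and MT-ND1, of complex I, 395, 271 and 466 and then 446, 244 and 478. Replicate 3 was the highest at both times in both genes and replicate 2 the lowest.

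Over the 24 lists together, 520 different genes were tested, 0 were called and 1 had an unadjusted p under 0.05. Their intervals lay within 1.5-fold for 430 (82.7%) and within 2-fold for 501 (96.3%), beside 68% and 88% of all genes. List medians ran from -0.10 to 0.06.

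**Figure D4:**
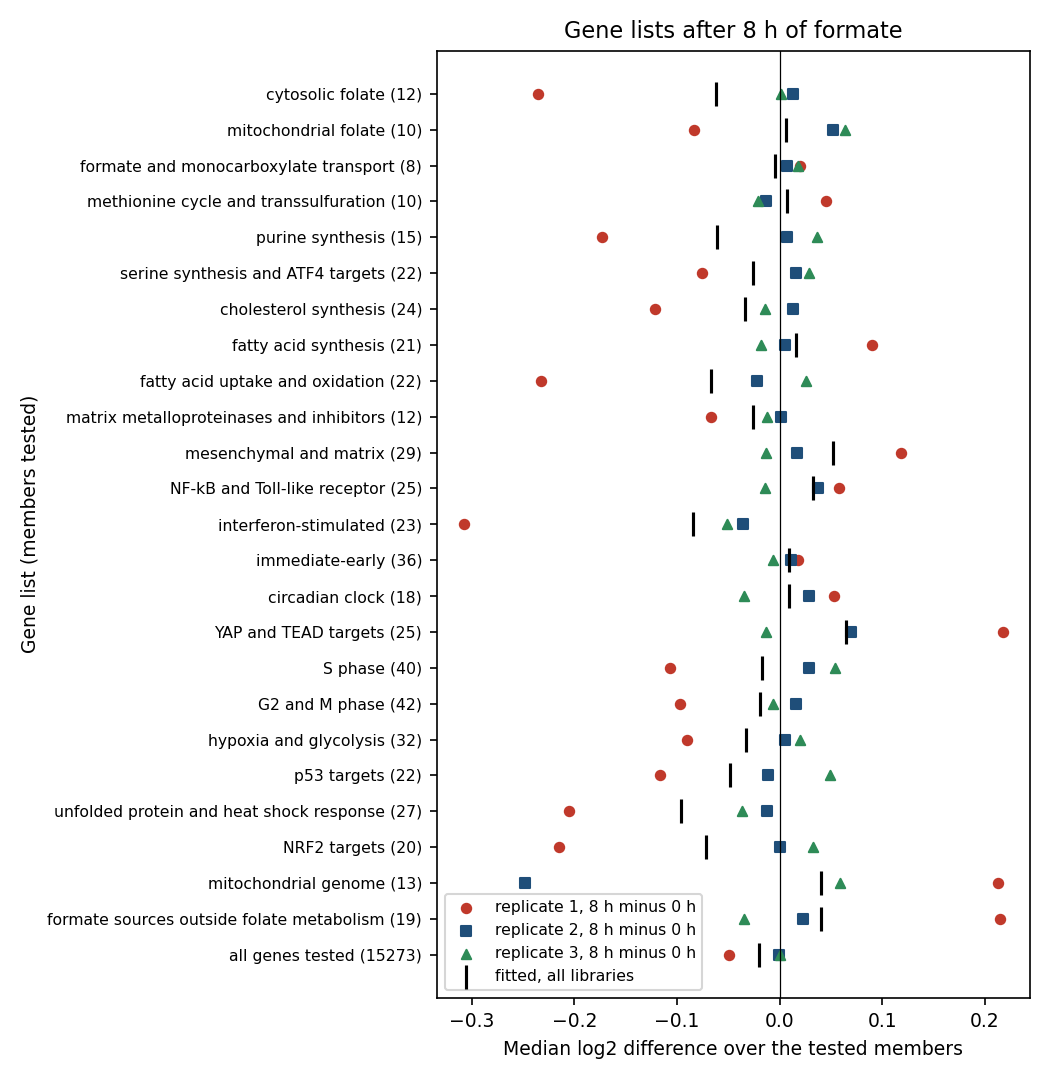
Median log2 difference between 8 h and 0 h over the tested members of each gene list (horizontal axis) within replicates 1, 2 and 3 (coloured points) and in the fit over all libraries (black bars), with all 15273 genes in the bottom row. The points of replicate 1 reach from -0.31 to 0.22, while those of replicates 2 and 3 stay near 0 except for the mitochondrial genome in replicate 2.

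The genes with the smallest p-values were mostly rare transcripts. Of the 79 with an unadjusted p under 0.05, 46 (58.2%) lay under 1 CPM, beside 13.6% of all genes tested, and 34 of the 75 with a GENCODE type (45.3%) coded for protein, beside 83.3%. The smallest p, 0.00605, belonged to the long noncoding RNA ENSG00000262873, with 0.424, 0.424 and 0.619 CPM at 0 h and 0.182, 0.219 and 0.213 at 8 h. Groups of 3 did not overlap for 506 genes (3.31%), 218 higher and 288 lower.

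Of genes with at least 5 CPM, 11 reached an unadjusted p under 0.05, and in 8 of them the groups did not overlap. MED12, a subunit of the Mediator kinase module (chromosome X, 71118556 to 71142454, plus strand), had 31.2, 44.4 and 48.5 CPM at 0 h and 56.0, 53.2 and 49.8 at 8 h. It was fitted 0.36 higher on the log2 scale (SE 0.14, unadjusted p = 0.0281), but its pair differences were 0.84, 0.26 and 0.04, so that most of it lay in replicate 1. NAA25, the auxiliary subunit of an N-terminal acetyltransferase (chromosome 12, 112026689 to 112109022, minus strand), was more even, with 37.3, 37.1 and 39.6 CPM and then 44.1, 41.8 and 44.2 (pair differences 0.24, 0.17 and 0.16, unadjusted p = 0.0445).

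On the lower side MBOAT1, an acyltransferase of phospholipid remodelling (chromosome 6, 20102145 to 20212399, minus strand), had 14.9, 15.1 and 14.7 CPM at 0 h and 12.3, 11.8 and 12.8 at 8 h. The 3 libraries of each time lay close together, the fitted change was -0.28 (SE 0.11, unadjusted p = 0.0255), and the pair differences were -0.28, -0.36 and -0.20. At 24 h MBOAT1 was 0.47 higher than at 8 h (adjusted p = 0.0378), and against 0 h it did not pass (0.19, adjusted p = 0.276). It was named for its low 8 h libraries, which the comparison of 24 h with 8 h also uses. BABAM2, a subunit of the BRCA1-A complex, had 36.7, 34.7 and 31.4 CPM and then 27.4, 31.1 and 28.6. XPA, a factor of nucleotide excision repair, had 12.8, 11.6 and 10.9 and then 9.63, 8.49 and 10.3. TRIT1, which modifies transfer RNAs, had 22.7, 19.3 and 19.7 and then 17.7, 17.0 and 17.7. PSMA1, of the proteasome core, had 50.3, 32.3 and 35.7 and then 31.4, 31.0 and 31.9, with untreated replicate 1 far above the other 5 libraries. None of these passed the adjusted threshold.

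The largest fitted changes among genes of at least 5 CPM with a symbol were largest in replicate 1. On the higher side they were ABI3BP, FAT1, KMT2D and HSPG2, all in the class with the longest exons. FAT1, a giant cadherin, had 218, 304 and 317 CPM at 0 h and 508, 354 and 273 at 8 h, and KMT2D, a histone methyltransferase, 99.2, 150.2 and 138 and then 237, 174 and 114; replicate 3 went the other way in both (pair differences 1.22, 0.22 and -0.21, and 1.26, 0.21 and -0.28). HSPG2, the proteoglycan perlecan, had 321, 339 and 372 CPM and then 647, 373 and 363. On the lower side they were TMEM160, RPL39, LDHB and GCHFR, all with exon lengths in the range of the shortest class. TMEM160 had 9.24, 4.66 and 6.02 CPM and then 4.40, 3.59 and 5.06 (interval 0.449 to 0.965), lower in all 3 pairs (-1.05, -0.37 and -0.25). LDHB, the heart-type lactate dehydrogenase, had 84.2, 43.4 and 39.5 CPM and then 42.1, 39.9 and 38.8, and the ribosomal protein RPL39 39.3, 18.9 and 17.4 and then 18.5, 17.5 and 14.4: in both untreated replicate 1 was high and the other 5 libraries lay together. GCHFR is overlapped on the other strand over 75.2% of its exons. ENSG00000263731, with no symbol, had a larger fitted change than these, -1.13 on the log2 scale. It had 29.5, 4.66 and 4.60 CPM and then 8.22, 3.54 and 5.91, with untreated replicate 1 alone high and an interval of 0.183 to 1.15.

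All 3 pairs were higher at 8 h for 1184 genes (7.75%) and lower for 1763 (11.5%). By the size of the smallest pair, the steadiest above 5 CPM on the lower side were PDGFA-DT, RNF43, ZNF879, TMEM160, GAPDHP1 and ZNF865. RNF43, a ubiquitin ligase that restrains Wnt receptors, had 8.39, 8.05 and 7.35 CPM at 0 h and 6.72, 6.74 and 5.74 at 8 h, without overlap (pair differences -0.32, -0.25 and -0.35, unadjusted p = 0.056); 20.3% of its exons are overlapped on the other strand. PDGFA-DT, a long noncoding RNA beside PDGFA, had 4.48, 5.43 and 7.39 CPM and then 3.54, 4.37 and 5.66, overlapping because its replicates lay far apart. GAPDHP1 is a processed pseudogene whose reads may belong to GAPDH. On the higher side they were ZC2HC1A, NBPF20, CKMT2-AS1, FOXR2, GLIS1 and RTL9. FOXR2, a forkhead factor, had 5.99, 7.32 and 7.12 CPM and then 7.40, 8.31 and 8.72, without overlap (pair differences 0.30, 0.18 and 0.29). NBPF20 belongs to a family of near-identical copies. GLIS1, a zinc finger factor, had 6.13, 3.85 and 5.35 CPM and then 7.76, 4.37 and 6.25. At 24 h it was 1.17 lower than at 8 h on the log2 scale (adjusted p = 0.0303). Against 0 h it did not pass (-0.91, adjusted p = 0.0618), and it was named for its higher 8 h libraries.

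The replicate number accounted for more of the spread than time did. Over the 6 libraries the median share of a gene's sum of squares was 6.63% for time, 64.5% for the replicate number and 22.7% for the rest. Pooled over genes the shares were 11.2%, 64.0% and 24.8%, where the degrees of freedom alone would give 20%, 40% and 40%. In edgeR's F test of the replicate number, with all 9 libraries, 1660 genes (10.9%) had an adjusted p under 0.05. Replicate 1 was the farthest from the others in 1321 of them, and without replicate 1 the count was 137. PYROXD2, an oxidoreductase and the gene with the smallest p (adjusted p = 0.000206), had 7.78, 17.5 and 21.9 CPM at 0 h and 7.08, 15.6 and 19.4 at 8 h, so that the rank of the replicates was the same at both times. RAB3B, a vesicle GTPase, had 24.2, 8.82 and 8.72 CPM and then 25.5, 10.8 and 8.51. NGFR, the neurotrophin receptor p75, had 87.1, 65.5 and 47.0 CPM and then 81.1, 65.4 and 49.2, and CLCF1, a cytokine, 39.6, 17.2 and 21.4 and then 35.8, 18.3 and 22.3. In NGFR the 3 replicates were spread in the same order at both times, and in the other genes given replicate 1 lay outside replicates 2 and 3. The labels do not say what a number stands for, and its part in the absence of calls at 8 h was not tested beyond the fit with the block, which called 0 genes.

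Of the 125 genes named by rule for this comparison, 27 differed between 24 h and 8 h by the same fit, and 55 with the replicate number as a block, where 0 differed between 8 h and 0 h by either. Among all genes tested 696 (4.56%) differed between 24 h and 8 h, and 3130 with the block. Beyond those given above, SHMT1, not called between 8 h and 0 h, rose from 8 h to 24 h by a log2 difference of 0.55 (adjusted p = 0.0248). The heat shock gene HSPA1A fell by 1.26 (adjusted p = 0.0248). Both comparisons use the 8 h libraries, so their values are given side by side and not related to each other.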

How the data were processed

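Stranded mRNA libraries made from total RNA of cultured dishes (RIN above 9) were sequenced, per the labels' protocols. The authors deposited raw read counts per gene for 9 libraries. STAR 2.7.4a, bcl2fastq 2.20.0.422 and the build GRCh38 are named in the submitters' processing notes; the counting program, annotation and strand setting are not given in the sources used here. Counts of overlapping, antisense or near-identical genes may therefore hold each other's reads. Every column matched 1 sample, and 19733 of 23727 genes had a symbol. Positions, exon lengths and gene types came from GENCODE 29, which held 23252 of the genes, and promoter sequences from RefSeq.

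Counts were scaled by TMM and filtered with filterByExpr, and all 9 libraries were fitted with edgeR 4.0.16 (R 4.3.3) by the quasi-likelihood test, with Benjamini-Hochberg adjustment over 15273 genes and a threshold of 0.05. Adjusted p-values printed for differences between times come from that fit. Those for the replicate number come from the fit with the replicate number added, and counts given for an alternative come from its own fit. Differences within a replicate number are of log2 CPM with a prior count of 2. DESeq2 1.42.0, limma 3.58.1, other filters, the replicate block and leaving out each library were alternatives. Intervals are at 95%. The code was tested on simulated data.

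Libraries of the same replicate number deviated together: correlations of their deviations at 0 h and 8 h were 0.48, 0.43 and 0.41 for numbers 1, 2 and 3, so the numbers were taken to pair the libraries, from the data and not from the labels.

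Members and gene lists were chosen with earlier results of these data known. Genes named are the key genes of each list and its member with the smallest p. To these were added, among genes of at least 5 CPM with a symbol, the 8 non-overlapping genes in each direction with the smallest p, the 4 largest fitted changes and the 6 steadiest across pairs in each direction, and the 6 with the smallest p for the replicate number. Others were chosen after their values were seen. Values of some list members and markers are not reported here.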

Additional observations from a re-analysis of the deposited data

How the results depend on the processing

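The count of genes called between 8 h and 0 h was 0 in every alternative run. The number with an unadjusted p under 0.05, 79 in edgeR, was 37 with DESeq2, 249 with no filter on low counts (23049 genes tested) and 46 with at least 10 counts required in each library (13830 genes tested). With the replicate block, which takes the numbers as pairs, it was 155, and 178 with only the 6 libraries of 0 h and 8 h, 39 in DESeq2 and 163 with the exon length correction. Leaving out 1 library gave 64 to 243. At 0 h, dropping replicate 2 gave 130 and dropping replicate 3 gave 243, and at 8 h dropping replicate 3 gave 144. Under the block, leaving out a number gave 147 to 556, with 181 without replicate 1 and the highest without replicate 3. The cause of these shifts was not tested. Genes whose interval lay within 1.5-fold numbered 8570 to 10487 when 1 library was left out. Genes that differed between replicate numbers were 369 with 6 libraries and 137 to 890 when a number was left out, the lowest without replicate 1. Between 24 h and 8 h, the genes called went from 696 to 3130 with the block, an alternative added after seeing the data, and the named genes among them from 27 to 55. Of 552 list medians recomputed, 510 moved by less than the spread between replicates and 42 by more, within -0.18 to 0.25. Of 2872 recomputed values of named genes, 184 moved by more, and 0 passed the threshold. The moves were uneven between alternatives. Without untreated replicate 1, 42 of 125 named genes and 8 of 24 list medians moved by more. Without replicate 1 at 8 h, 30 of 125 named genes and 7 of 24 list medians did. The block changed no call between 8 h and 0 h. Depth and spread left genes under 5 CPM with wide intervals.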

Other observations

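In 2 gene families with median summed exon lengths of 3055.5 and 2454.5 bases, chosen after the length trend was seen, nearly every member was fitted lower at 8 h. Among all 15273 genes tested, 8663 were fitted lower. Of 76 cytosolic ribosomal protein genes, which build the ribosome, 75 were fitted lower at 8 h and 0 were called, with a median log2 change of -0.16. Their median differences were -0.46 in replicate 1, 0.02 in replicate 2 and 0.09 in replicate 3. Of 44 genes of NADH dehydrogenase, the first complex of the respiratory chain, 43 were fitted lower and 0 were called, with a median of -0.14. By pair the medians were -0.45, -0.00 and 0.06. In both families only the median of replicate 1 lay more than 0.1 below 0.

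Gene types differed in how often an unadjusted p under 0.05 was reached. It was reached by 34 of 12630 protein-coding genes (0.269%), 12 of 814 antisense genes (1.47%), 9 of 708 long intergenic noncoding genes (1.27%) and 6 of 225 processed pseudogenes (2.67%). Antisense genes and pseudogenes can take reads from their partner genes. The share also followed level: it was 2.22% of genes under 1 CPM, 0.932% from 1 to 5 CPM and at most 0.187% in any higher range. Gene types were not compared at equal level, and every share given lay under the 0.05 of evenly spread p-values.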
